A study of Mus musculus with 8 samples.

Results

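The SLC26 genes of the mouse other than Slc26a4 and Slc26a7 were followed in thyroids exposed to 99mTcO4- and in control thyroids. They are Slc26a1, Slc26a2, Slc26a3, Slc26a5, Slc26a6, Slc26a8, Slc26a9, Slc26a10 and Slc26a11, 9 of the 34797 gene names on the array, and were measured by 14 of the 55681 mouse probes on the array (23 of 59305 spots). Members were found by their gene name in the array files, and all of their probes were kept. The set itself was chosen by measured values of this same contrast, in which Slc26a10 had stood out, so the differences between exposed and control thyroids below are a description of the members and not a test of them. Each of 8 one-colour Agilent arrays held RNA from 1 thyroid of a female Balb/c mouse aged 8 weeks and fed a normal-iodide diet. In the exposed group (arrays S539, S588, S589 and S590), 99mTcO4- given intraperitoneally delivered an absorbed dose of 30 Gy to the thyroid, and RNA was taken 24 hours later. The 4 control mice (numbered 1 to 4) received no radioactivity. The study's text calls them untreated in one place and given saline in another.

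SLC26 proteins are membrane proteins that exchange or conduct anions such as chloride, bicarbonate, sulfate, oxalate and iodide, and most carry a cytoplasmic STAS domain. In the thyroid the family is known for pendrin (Slc26a4), which serves iodide at the apical membrane of thyrocytes, and for Slc26a7, whose loss causes hypothyroidism. The other members are best known from gut, kidney, cartilage, inner ear, stomach and testis.

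All values are log2 of the background-subtracted spot signal after quantile normalization between arrays, and a difference is the exposed mean minus the control mean on this scale, with the standard error of the limma fit. The scanner software marks a spot as well above background or not; 60.5% to 75% of the spots of the control arrays and 70.9% to 77.3% of those of the exposed arrays were, and no spot was saturated. Before normalization the 75th percentile of the spot signal was 701, 1230, 1180 and 1140 on controls 1 to 4. On S539, S588, S589 and S590 it was 712, 752, 891 and 863. The 8 arrays shared 1 slide and 1 scan, and since the exposed samples filled its first positions, the effect of position and that of exposure cannot be told apart. The thyrocyte markers fixed for the check of the tissue (12 genes, among them Tg and Nkx2-1) all gave signals well above background on each array.

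Of the 14 probes, 8 were well above background on all 8 arrays and 3 on none. Both probes of Slc26a10 passed limma's threshold (adjusted p under 0.05 over all probes), lower in exposed thyroids, and 0 of the 12 probes of the other members did, though for 2 of them (of Slc26a2 and Slc26a6) the unadjusted 95% interval of the difference lay below 0. Over all probes 0.781% passed in either direction and 0.194% passed as lower. Of the genes read by a RefSeq probe, here one whose accession begins with NM or NR, 1.2% passed. Such a probe exists for 8 of the 9 members, Slc26a8 being the exception. The 95% interval lay below 0 for 5.87% of all probes. The control and exposed arrays did not overlap for 3 member probes, each lower in exposed thyroids, against 9.11% of all probes with groups that did not overlap in either direction. Since the members were chosen on this contrast, nothing is read from these shares. The median difference over the 14 probes was −0.23, beside 0.01 over all probes. Without Slc26a10 it was 0, with 6 differences below 0 and 6 above, a count that includes 3 probes detected on no array. Over the 6 of these 12 probes that were well above background on all 8 arrays (4 genes) it was −0.40, with 4 differences below 0.

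**Figure D1:**
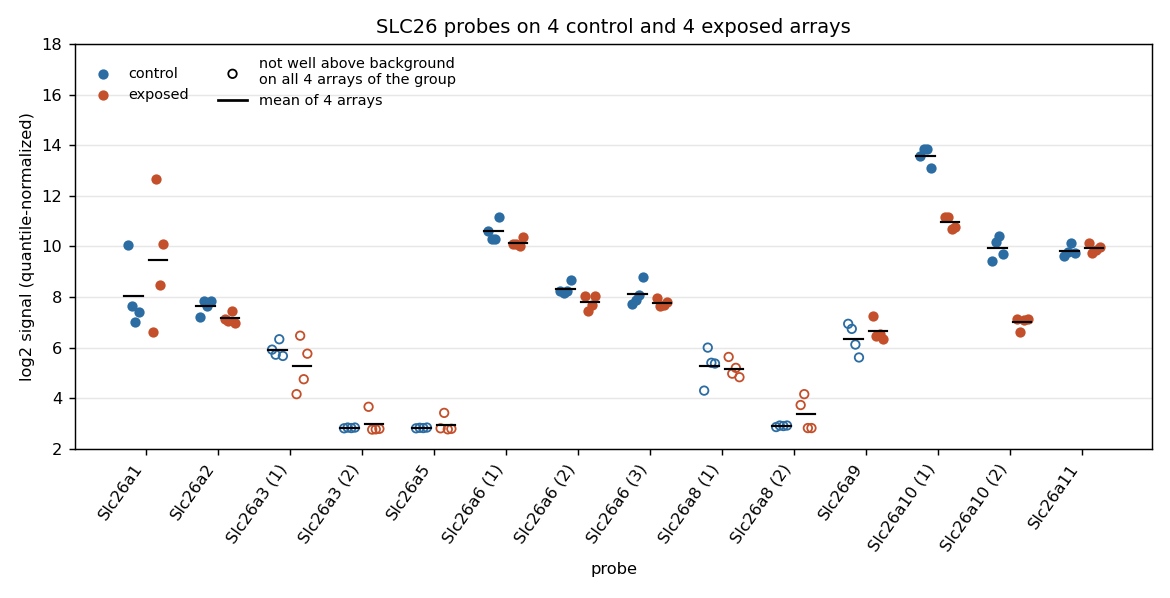
Quantile-normalized log2 signal (vertical axis) of the 14 SLC26 probes (horizontal axis, probes of 1 gene numbered in the order of the text) on 4 control arrays (blue) and 4 exposed arrays (orange), with lines at the means of 4 arrays and open points where a group was not well above background on all its arrays. Both Slc26a10 probes separate the groups, and Slc26a1 has the widest spread within each group of the 14 probes.

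Slc26a10 is the least characterised of the members, with a transport activity that is not settled. Its 2 probes lie at different positions on the minus strand of chromosome 10 (positions in mm9, the build of the array files). They carry different accessions, and whether 1 transcript holds both was not checked. A_52_P140881 carries the accession NM_177615 and lies at chr10:126610349-126610408. A_55_P2087067 carries ENSMUST00000038612, lies at chr10:126611832-126611891 and starts 1483 bases from it. Their sequences are shown because the largest difference in the family rests on these 2 oligonucleotides and the oligonucleotides bind apart from each other. Read from the first base, A_55_P2087067 ends in a stop codon, which the capitals mark. This probe also has 1 forward frame without a stop codon, and which frame is translated was not determined.
A_52_P140881: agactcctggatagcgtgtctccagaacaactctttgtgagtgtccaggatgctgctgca
A_55_P2087067: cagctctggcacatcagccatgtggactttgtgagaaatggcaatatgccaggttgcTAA

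The level read by A_52_P140881 was 13.59, 13.85, 13.83 and 13.09 on control arrays 1 to 4, and 11.15, 11.16, 10.70 and 10.77 on S539, S588, S589 and S590. Every exposed array lay below every control array, with 1.93 between the nearest of them. The means were 13.59 ± 0.35 for controls and 10.94 ± 0.25 for exposed thyroids (SD, n = 4 each), a difference of −2.65 (SE 0.22, 95% interval −3.15 to −2.15), or a 6.27-fold lower signal.

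The level read by A_55_P2087067 was 9.42, 10.16, 10.41 and 9.68 in controls, and 7.15, 6.60, 7.10 and 7.13 in exposed thyroids in the same order. Again no exposed array reached the lowest control. The means were 9.92 ± 0.45 and 7.00 ± 0.27 (SD, n = 4 each), a difference of −2.92 (SE 0.25, 95% interval −3.51 to −2.34), or a 7.59-fold lower signal. On each array the signals of the 2 probes lay between 3.41 and 4.56 apart. Both were well above background on all 8 arrays, so neither fold change is a bound. In whole thyroid, fewer cells of a type and less RNA per cell cannot be told apart.

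Other measurements moved with Slc26a10. The thyrocyte marker score (the mean of 12 centred log2 signals) ranged from −0.06 to 0.90 on the control arrays and from −0.51 to −0.33 on the exposed arrays, a difference of −0.80 with a two-sided exact permutation p of 0.0286, the smallest that 4 against 4 arrays allow, and 0.229 after adjustment over the 8 marker lists. The summed log2 level of the 12 markers was 145 to 156 on control arrays and 139 to 141 on exposed arrays. Of the 12 markers 2 passed limma's threshold, both lower. These were Slc5a5, the sodium/iodide symporter (difference −3.53, SE 0.41), and Dio1, the type 1 deiodinase (−2.46, SE 0.30). Thyroglobulin (Tg), the hormone precursor, had a difference of 0.04 (SE 0.13), and Nkx2-1, a transcription factor of the thyroid lineage, one of −0.09 (SE 0.21). The marker list was chosen with earlier results of these data known, and the paper already reported Slc5a5 as lower in these arrays. The score difference and its permutation p are thus a description and not a test. The part of the thyrocyte markers in the Slc26a10 result was not tested.

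Markers of other cell types were listed as well, since whole thyroid can carry neighbouring tissue. The score difference was 0.08 for cartilage (exact permutation p = 0.657), 0.10 for ciliated airway epithelium (p = 1), 0.05 for salivary gland (p = 0.829), −1.03 for skeletal muscle (p = 0.2), −1.46 for developing T cells (p = 0.429), 0.15 for adipocytes (p = 0.629) and 0.37 for parathyroid and C cells (p = 0.229). In these lists 2 genes passed limma's threshold, the ciliary genes Foxj1 (difference 2.49, SE 0.33) and Dnali1 (1.40, SE 0.20), both higher. The ciliary list moved in both directions, with 4 of its 7 differences below 0. The lowest was Tekt1, a microtubule protein of cilia, with −1.83 (limma adjusted p = 0.0899) and groups that did not overlap. The cartilage list moved in both directions as well, with 6 of its 10 differences below 0. Groups did not overlap for Col9a1, with −1.30 (limma adjusted p = 0.0564), or for Matn1, with 1.47 (limma adjusted p = 0.11). Differences lay below 0 for 8 of 8 skeletal muscle genes, 7 of 8 developing T cell genes and 1 of 8 parathyroid and C cell genes. They did so for 3 of 6 salivary gland genes and 3 of 7 adipocyte genes. The developing T cell score was 3.25 on control 1, above every other array, and without that array its difference was −0.62. Control 2 also stood above controls 3 and 4 for each gene of this list except Themis. Rag1, for example, read 11.96, 10.64, 2.89 and 2.92 on controls 1 to 4. Without control 2 the score difference was −0.97, so this list varied widely among the controls. On fewer than 8 arrays were well above background the cartilage genes Col2a1, Matn1, Matn3 and Hapln1, the T cell genes Rag1, Ptcra, Cd8b1 and Themis, the adipocyte gene Lep, the C cell gene Calcb, and 5 of the 6 salivary genes measured.

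In the RefSeq table (GRCm38.p6) Slc26a10 overlaps B4galnt1, a ganglioside-synthesising glycosyltransferase, by 948 bases, and Arhgef25 is the next gene, 1815 bases away. The B4galnt1 probe lies on the plus strand, opposite to Slc26a10, and had a level of 10.23 ± 0.40 in controls and 10.18 ± 0.08 in exposed thyroids (SD, n = 4 each), a difference of −0.06 (SE 0.21, limma adjusted p = 0.932). The Arhgef25 probe read 13.33 ± 0.10 in controls and 12.83 ± 0.05 in exposed thyroids (SD, n = 4 each), and its groups did not overlap. Its difference was −0.51 (SE 0.12) and missed limma's threshold (adjusted p = 0.138).

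The genes whose pattern over the 8 arrays was most like that of Slc26a10 were found by the root mean square difference between centred log2 signals, among 19559 genes whose log2 signal averaged 7 or more. They were Cx3cr1, the fractalkine receptor of macrophages and microglia (0.220), Dio1 (0.297), Grp, the gastrin-releasing peptide (0.382), Mfi2, the iron-binding melanotransferrin (0.391), and Wdfy4, a gene needed for cross-presentation in dendritic cells (0.395). Cx3cr1 was at 10.63, 11.46, 10.79 and 10.47 in controls and at 8.60, 8.53, 8.17 and 8.32 in exposed thyroids, so it had its highest value on control 2 and its lowest on S589, as did the Slc26a10 probe A_52_P140881 by which likeness was measured. The other Slc26a10 probe was highest on control 3 and lowest on S588. In all, 10 genes on 8 chromosomes lay within 0.5 of the pattern, and 9 of them passed limma's threshold. Likeness to a gene that fell selects genes that fell, so these counts follow from the choice.

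**Figure D2:**
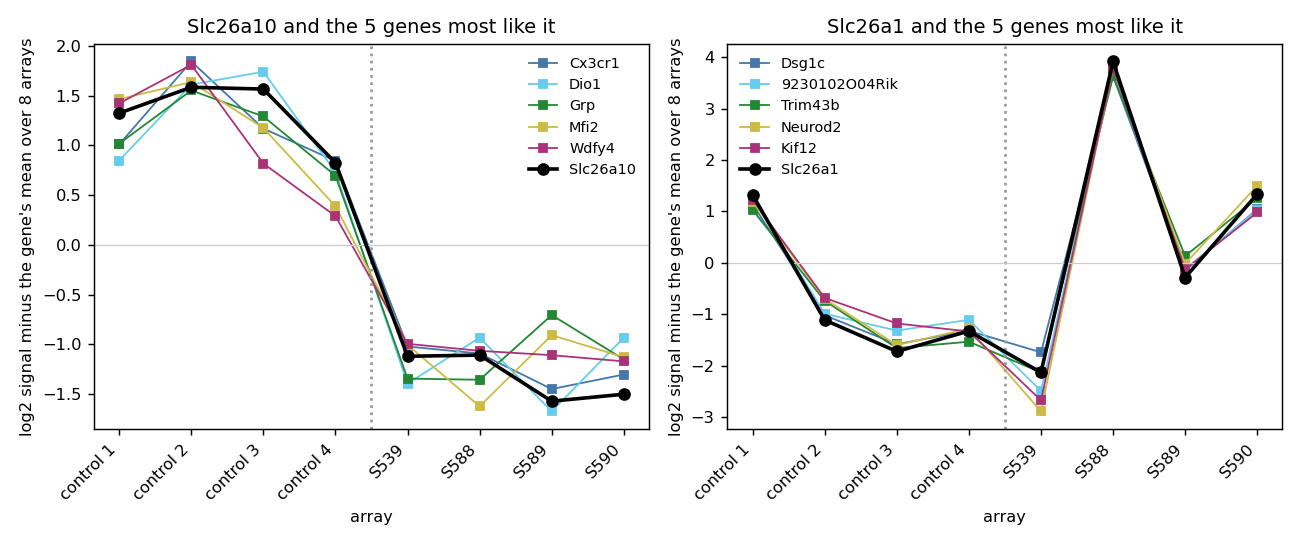
Log2 signal minus the mean of the gene over 8 arrays (vertical axis) for each array (horizontal axis), with Slc26a10 and its 5 most like genes on the left and Slc26a1 and its 5 most like genes on the right; lines only join the values of 1 gene, and a dotted line parts controls from exposed arrays. The left panel steps down between the groups, and the right panel peaks on S588.

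Slc26a1, Slc26a2 and Slc26a11 carry sulfate. Slc26a1 is a sulfate and oxalate exchanger of liver and kidney. Its single probe A_55_P2115567 (chr5:109099563-109099622, minus strand) had a level of 10.06, 7.63, 7.02 and 7.41 in controls and of 6.61, 12.66, 8.46 and 10.08 in exposed thyroids. S588 was far above the other 7 arrays, S539 was the lowest, and the groups overlapped widely. The difference of 1.42 (SE 1.28, 95% interval −1.54 to 4.38) was smaller than the within-group SD of 2.06, which was wider than for 99.9% of probes of comparable detection (well above background on each of the 8 arrays). Without S588 the difference was 0.36, and without S539 it was 2.36.

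The pattern of Slc26a1 was shared by genes elsewhere in the genome, which were looked for after its values had been seen. The nearest were Dsg1c, a desmosomal cadherin (root mean square difference 0.224), 9230102O04Rik (0.255), Trim43b (0.259), Neurod2, a neuronal transcription factor (0.334), and Kif12, a kinesin (0.345). Within 0.5 of the pattern lay 23 genes on 15 chromosomes, of which all 23 were highest on S588, 22 were lowest on S539 and 0 passed limma's threshold. At an unadjusted limma p under 0.05 there were 0 of the 23. Slc26a1 lies within Idua, a lysosomal hydrolase of glycosaminoglycans, over its whole length of 8503 bases in GRCm38.p6. The Idua probe A_55_P2097176, on the opposite strand, was at 15.26, 14.75, 14.39 and 14.04 in controls and at 15.14, 16.34, 14.64 and 15.49 in exposed thyroids, and it too was highest on S588. A second Idua probe, A_55_P2097178, ranged only from 10.07 to 10.40 over the 8 arrays, so the probes of Idua disagree.

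Slc26a2 is the sulfate transporter of chondrocytes, mutated in chondrodysplasias. Its probe A_66_P100696 read 7.19, 7.84, 7.64 and 7.83 in controls and 7.12, 7.07, 7.44 and 6.99 in exposed thyroids. Control 1 fell among the exposed arrays, and the other 3 controls lay above them. The means were 7.62 ± 0.30 and 7.15 ± 0.20 (SD, n = 4 each) and differed by −0.47 (SE 0.19, 95% interval −0.91 to −0.02), which did not pass limma's threshold. Over the alternative settings the difference ran from −0.62 without control 1 to −0.31 (SE 0.17) with scaling to the 75th percentile. The size of the Slc26a2 difference thus depended on the processing.

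Slc26a11, a sulfate transporter and chloride pathway found in kidney and brain, had 10 spots per array for its probe A_51_P113403 (chr11:119242219-119242278, plus strand). Their averages were 9.61, 9.76, 10.14 and 9.73 in controls and 10.14, 9.73, 9.86 and 9.96 in exposed thyroids, with full overlap. The difference was 0.11 (SE 0.17, 95% interval −0.27 to 0.50). Within an array the SD over the 10 spots was 0.04 to 0.11, below the SD between arrays of 0.23 in controls and 0.17 in exposed thyroids, so the spot-to-spot error was the smaller part of the spread.

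Slc26a3 and Slc26a6 exchange chloride for bicarbonate. Slc26a6 also moves oxalate and formate and acts in pancreas, gut and kidney. It was read by 3 probes on chromosome 9, plus strand, namely A_55_P2153743 (chr9:108815322-108815380), A_51_P313638 (chr9:108814756-108814815) and A_55_P2036407, which the array files place at chr9:108763641-108763700, 51115 bases from the second. The last pair is shown since the probes differ in whether the groups overlap and since their stated positions are far apart. Each has 2 forward frames without a stop codon, and no base is in capitals.
A_51_P313638: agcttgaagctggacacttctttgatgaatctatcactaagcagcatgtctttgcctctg
A_55_P2036407: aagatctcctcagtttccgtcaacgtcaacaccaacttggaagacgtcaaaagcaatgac

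A_55_P2153743 read 10.61, 10.31, 10.30 and 11.16 in controls and 10.11, 10.10, 10.01 and 10.36 in exposed thyroids, with 1 exposed array (S590) above 2 of the controls. A_51_P313638 read 8.25, 8.16, 8.24 and 8.67 in controls and 8.03, 7.44, 7.67 and 8.05 in exposed thyroids, and its groups did not overlap, although by a margin of 0.12 between the nearest arrays. A_55_P2036407 read 7.73, 7.90, 8.06 and 8.80 in controls and 7.95, 7.63, 7.69 and 7.81 in exposed thyroids, which overlapped. Control 4 was the highest array with each of the 3 probes. The differences were −0.45 (SE 0.22, 95% interval −0.95 to 0.05), −0.53 (SE 0.19, −0.98 to −0.08) and −0.35 (SE 0.24, −0.91 to 0.20), all below 0, and none passed limma's threshold. Without control 4 the differences shrank to −0.26, −0.41 and −0.13, so that array carried a large part of the third.

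Slc26a3 is the chloride/bicarbonate exchanger of the colon, whose loss causes congenital chloride diarrhoea. Its probe A_52_P185162 (chr12:32137633-32137692, plus strand) was well above background on 3 control and 2 exposed arrays. It read 5.92, 5.72, 6.33 and 5.67 in controls and 4.16, 6.47, 4.75 and 5.76 in exposed thyroids, a difference of −0.62 (SE 0.48) with overlap. The other probe, A_52_P31381 (chr12:32158340-32158399), was not well above background on any array, so no difference is read from it.

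Slc26a9 conducts chloride in stomach and airway epithelium. Its probe A_52_P258557 (chr1:133666246-133666305, plus strand), well above background on 3 control and 4 exposed arrays, read 6.94, 6.74, 6.12 and 5.61 in controls and 7.26, 6.44, 6.53 and 6.35 in exposed thyroids. The groups overlapped, and the difference was 0.29 (SE 0.34, 95% interval −0.49 to 1.08). Slc26a5 is prestin, the motor protein of outer hair cells. Its probe A_55_P2263292 (chr5:21316891-21316950, minus strand) was not well above background on any array. Slc26a8 serves chloride transport in sperm. Of its probes, A_51_P193189 (chr17:28787104-28787163, minus strand) was well above background on 2 control and 3 exposed arrays and differed by −0.11 (SE 0.36), with levels from 4.30 to 6.00 in controls and from 4.83 to 5.63 in exposed thyroids. The second, A_52_P22640 (chr17:28779206-28779265), was not well above background on any array.

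**Figure D3:**
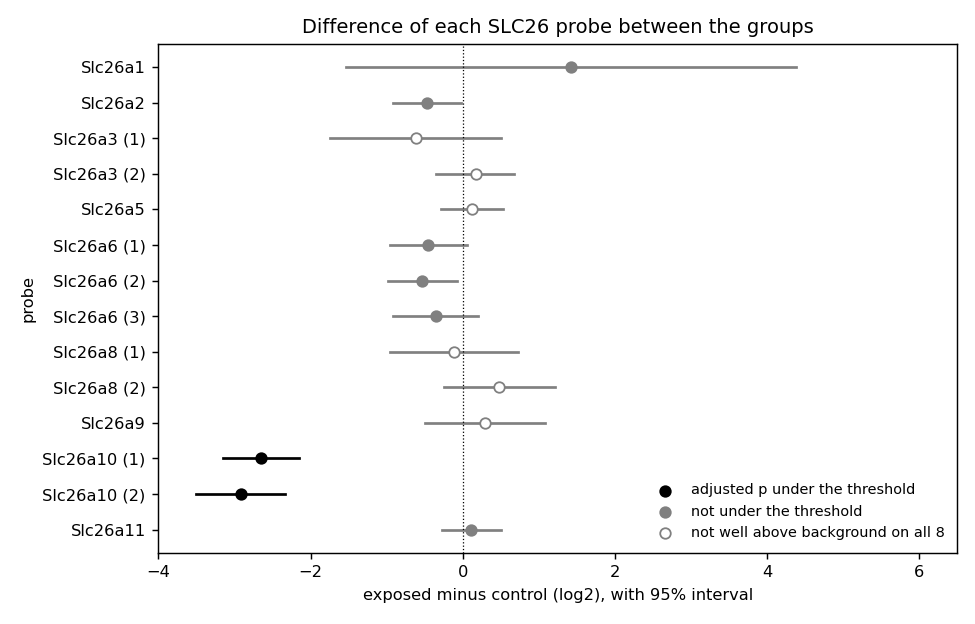
Exposed minus control difference in log2 signal (horizontal axis, points) with its 95% interval (bars) for the 14 SLC26 probes (vertical axis); black marks probes with a limma adjusted p under 0.05, and open points mark probes not well above background on all 8 arrays. Both Slc26a10 intervals lie below −2, and those of the other probes lie above −2.

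The 2 relatives left out of the set were read for comparison. The Slc26a4 probe was well above background on 2 control and 3 exposed arrays, with a difference of −0.25 (SE 0.58). Slc26a7 was at 11.38 ± 0.59 in controls and 10.94 ± 0.22 in exposed thyroids (SD, n = 4 each), a difference of −0.44 (SE 0.30). Neither passed limma's threshold.

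Genes that work with SLC26 proteins were counted in 4 lists, each gene read by its RefSeq probe of highest mean signal. Of the 44 genes, 0 passed limma's threshold and 5 had an unadjusted p under 0.05, 2 higher and 3 lower in exposed thyroids, where 14.6% of all genes read by a RefSeq probe had such a p. The methods' t-test, with the same adjustment, called 0. Over all 21021 genes read in this way the median difference was −0.03.

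The SLC4 family of bicarbonate transporters (10 genes) had a median difference of 0.10. Its extremes were Slc4a5, a sodium bicarbonate cotransporter, with −1.25 (SE 0.35, limma adjusted p = 0.206), and Slc4a11, a transporter of the corneal endothelium, with 0.83 (SE 0.23, limma adjusted p = 0.205). Slc4a5 was at 13.23, 14.58, 14.61 and 13.58 in controls and at 12.59, 13.12, 12.81 and 12.50 in exposed thyroids, without overlap. The carbonic anhydrases (16 genes), which make bicarbonate from carbon dioxide, had a median of −0.10. Their highest difference was that of Car6, the secreted enzyme of saliva, with 1.03 (SE 0.23, limma adjusted p = 0.115), and its probe was well above background on 1 control and 4 exposed arrays. The lowest was that of Car8, a member without catalytic activity, whose probe was well above background on 2 control and 0 exposed arrays. Its measured means were 4.70 in controls and 2.90 in exposed thyroids, and the groups overlapped. The difference of −1.80 (SE 0.73, limma adjusted p = 0.383) missed the threshold. Since controls too were partly near background, no fold change is read for Car8.

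The list for sulfate uptake and activation (8 genes) had a median of −0.13, and 7 of its 8 differences were below 0. Its lowest was Papss2, which makes the sulfate donor PAPS, at 14.72, 15.25, 15.60 and 14.55 in controls and at 14.00, 13.69, 13.74 and 13.69 in exposed thyroids. The exposed arrays all lay under the lowest control, and the difference was −1.25 (SE 0.25, limma adjusted p = 0.0826), which missed the threshold. Over the alternative settings its limma adjusted p ran from 0.0226 to 0.234 and was under the threshold in 7 of them. The paralog Papss1 differed by −0.09 (SE 0.19), and the highest of the list, the phosphatase Bpnt1, by 0.11 (SE 0.22). The partners and regulators (10 genes), among them the chloride channel Cftr with −0.03 (SE 0.28), had a median of −0.14. They ran from −1.09 (SE 0.76) for Pdzd3, a PDZ scaffold, to 0.17 (SE 0.25) for Ahcyl1, which encodes IRBIT.

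**Figure D4:**
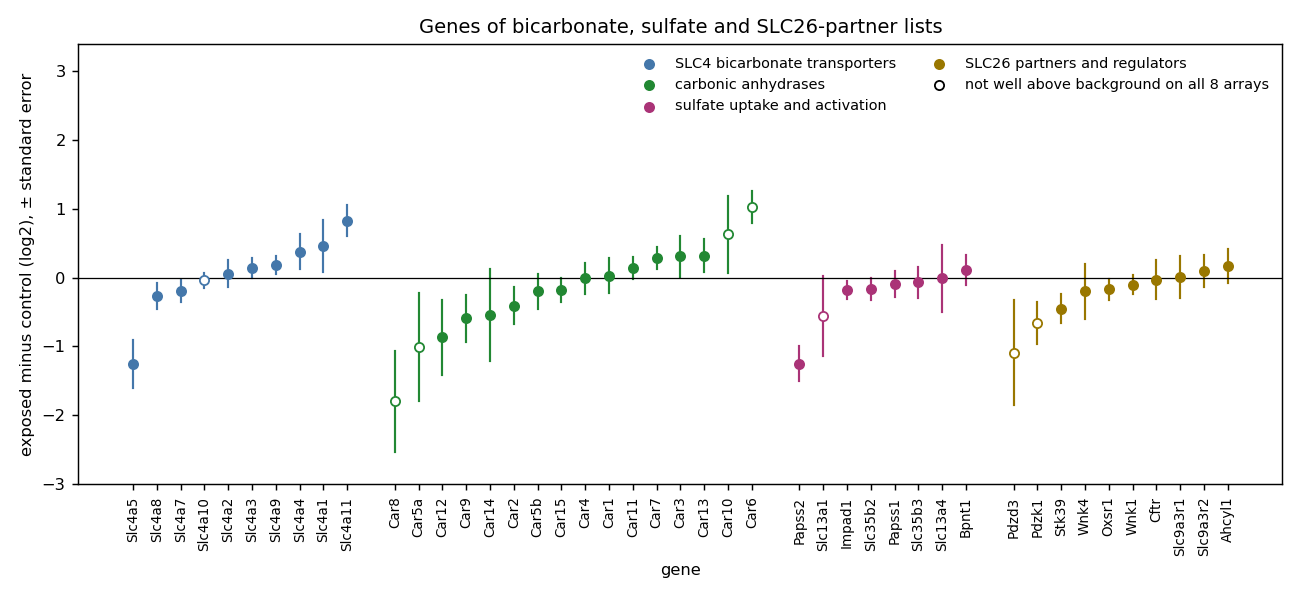
Exposed minus control difference in log2 signal (vertical axis, points) with its standard error (bars) for 44 genes in 4 lists (horizontal axis, ordered within each list); open points mark genes not well above background on all 8 arrays. Most points lie near 0, and Slc4a5 and Papss2, both at −1.25, stand lowest in their lists.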

How the data were processed

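Spot intensity values deposited by the authors came from Feature Extraction 10.7.3.1 (probe positions in mm9). The authors also deposited log2 values, which lay within 0.0378 of quantile-normalized log2 median spot signals. Their array methods name limma, quantile normalization, a B-test and an adjusted p of 0.05.

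Here the background-subtracted intensity was put on the log2 scale and quantile-normalized, control spots were left out, and spots of a probe were averaged. Groups were compared with limma 3.58.1 in R 4.3.3 (lmFit and eBayes without covariates), and p-values were adjusted by Benjamini-Hochberg over 55681 probes. Of the 14 member probes, 10 carry an accession found in the RefSeq table (GRCm38.p6), which gave gene neighbours. The number of arrays (8, each of 1 thyroid) limits the precision.

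The members and all lists were chosen with earlier results of these data known. Named were all members, list genes past the threshold, the largest difference each way in the 4 lists, neighbours of Slc26a10 and its 5 most like genes. Genes like Slc26a1, and Idua, were chosen after values were seen, as were Papss1, Cftr, Tg, Nkx2-1 and Tekt1. On simulated arrays (4 against 4, 55681 probes) the fit called 52% of 100 probes changed by a log2 of 2 and 78% of 100 changed by 3, with 7 unchanged probes called. The simulated noise was independent for each probe, without variation shared between probes, so these rates may differ on the real arrays. Alternatives were other scaling, other background corrections, dim probes or marked spots left out, the deposited values, a variance trend and array weights. Further ones were a Student's t-test, the mean over a gene's probes, and each array left out in turn.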

Additional observations from a re-analysis of the deposited data

Results flagged for a closer look

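In 17 groups of 4 arrays in which a member probe was well above background on every array, Dixon's ratio marked 2 single arrays, where chance gives 0.85. With the Slc26a6 probe A_51_P313638, control 4 was at 8.67 and the other controls between 8.16 and 8.25. With the Slc26a10 probe A_55_P2087067, the exposed array S588 was at 6.60 and the other exposed arrays between 7.10 and 7.15. Without S588 the difference of this Slc26a10 probe was −2.84, and without control 4 that of the Slc26a6 probe was −0.41.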

How the results depend on the processing

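Under all 17 alternatives 2 member probes passed limma's threshold, both of Slc26a10, and the log2 difference of its first probe stayed between −2.82 and −2.56; that of the second ran from −3.14 without control replicate 1 to −2.21 with normexp background correction. The genes of the 4 pathway lists that passed (0 in the report) numbered 1 with scaling to the 75th percentile, with normexp, with no background correction, in the deposited values, with dim probes filtered and with a variance trend (each time Papss2), and 3 with array weights (Slc4a5, Car6 and Papss2). Leaving out each array in turn gave 0 to 1, the 1 being Car6 without control replicate 1. The genes shared with the 5 most like Slc26a10 ran from 2 to 5. Over all probes 435 passed, against 100 without S590 and 962 with no background correction. Scaling to the 75th percentile moved the median of all probes to 0.16. The differences of Slc26a1 ran from 0.36 to 2.36 and of Slc26a8 from −0.44 to 0.33. Leaving out each array in turn, an alternative chosen after seeing the data, gave thyrocyte score differences from −0.96 to −0.64 and developing T cell score differences from −2.14 to −0.62. Of 251 values under alternatives, 238 kept within the limits set for them and 13 moved. The limit was a shift under the within-group SD for a difference or score, and a fixed ratio for a count. A reversal was defined only for a member past the threshold, thus for Slc26a10, and 0 were found. Signs did turn for Slc26a8, Slc26a3 (−0.23 to 0.27) and Slc26a5 (−0.03 to 0.20). They also turned for the score differences of cartilage, ciliated airway epithelium, salivary gland and adipocytes. The cause of these changes was not tested. No paired analysis was possible because controls are numbered 1 to 4 and exposed thyroids carry other names, so the groups share no replicate number. Signals near background limit Slc26a3, Slc26a5, Slc26a8 and Slc26a9.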
